A study of Mus musculus with 20 samples.

Results

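The genes described here are the members of the mouse cytochrome P450 families Cyp1, Cyp2 and Cyp3 that an Agilent whole-mouse array measured in liver. Members were the array probes whose gene name in the scanner files begins with Cyp1, Cyp2 or Cyp3, a lower-case letter and a number. This gave 67 of 41174 probes, which stood for 44 of 27573 genes in 15 subfamilies, and all 44 were among the 17526 genes bright enough to be tested. The study compared livers of male mice of a mixed Sv129/C57Bl6J background, 28 weeks old, fed a Western diet or a normal chow for 7 weeks. The 4 groups of 5 mice were knockout mice lacking both LXR alpha and LXR beta on Western diet, the same knockout mice on normal diet, wild-type mice on Western diet and wild-type mice on normal diet. LXR alpha and LXR beta are nuclear receptors that sense oxidised cholesterol. Each array held RNA of 1 liver sample, and the p-values below measure the spread between these samples.

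Cytochromes P450 of these families are haem enzymes of the endoplasmic reticulum that oxidise drugs, steroids, bile acids, retinoids and fatty acids with electrons from the reductase Por. In the liver they are made mainly by hepatocytes, many of them by those around the central vein, and the nuclear receptors CAR and PXR and the aryl hydrocarbon receptor AhR induce particular members. In mice several members are expressed more in females or in males under the pattern of growth hormone secretion.

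Levels are log2 of the background-corrected signal minus the 75th percentile of the same array, so a level of 0 is as bright as that percentile. A level was not compared between probes. Differences are given on the log2 scale with their standard error, knockout minus wild-type or Western diet minus normal diet. They come from limma with p-values adjusted by Benjamini-Hochberg over all genes tested, with a threshold of 0.05. A gene with several probes was represented by the probe with the highest mean level.

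Nr1h3, which encodes LXR alpha, had levels of -5.44 to -3.74 in knockout mice on Western diet and -5.16 to -3.82 in knockout mice on normal diet. In wild-type mice its levels were 3.82 to 4.68 on Western diet and 4.38 to 4.68 on normal diet. Nr1h2, which encodes LXR beta, had levels of -5.28 to -3.57 in knockout mice and 0.60 to 0.82 in wild-type mice on Western diet, and -5.75 to -3.83 in knockout mice and 0.67 to 1.01 in wild-type mice on normal diet. The 20 arrays lay on 6 slides, and arrays of a group correlated with r of 0.952 to 0.991. The 75th percentiles were 340 to 435 signal units in knockout mice on Western diet and 223 to 323 in knockout mice on normal diet. In wild-type mice they were 261 to 331 on Western diet and 170 to 280 on normal diet. Levels subtract this percentile, so a saturated spot gets a lower level where it is higher. Its part in the calls below was not tested. Fewer cells of a type and less RNA per cell cannot be told apart in these whole-liver samples. On 19 hepatocyte markers the mean level was 5.77 to 6.01 in knockout mice on Western diet, below the 6.60 to 6.97 of knockout mice on normal diet, the 6.50 to 6.72 of wild-type mice on Western diet and the 6.73 to 7.19 of wild-type mice on normal diet.

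Many members lie in tandem arrays of near-copies, and this sets what a probe can tell. In mm8 coordinates of the scanner files the Cyp3a probes lay within chr5:138123878-146294176, the Cyp2b probes within chr7:25625797-26481210 and the Cyp2c probes within chr19:39107228-44058415. The files' Cyp3a41 is Cyp3a41a in RefSeq. The probe used for 6 of the 44 members carries accessions of another gene as well. The Cyp2b9 probe also lists Cyp2b10, the Cyp2b13 probe Cyp2b9 and Cyp2b10, and the Cyp2a4 probe Cyp2a5. The Cyp3a11 probe also lists Cyp3a41a and Cyp3a44, the Cyp2c40 probe Cyp2c67 and Cyp2c68, and the Cyp2d9 probe Cyp2d22 and Cyp2d34. The values of such genes may hold signal of the other gene. Upstream sequences are shown because 3 Cyp2b genes and 5 Cyp3a genes were called higher in knockout mice on normal diet. The 250 bases before the start site are shown for these 3 Cyp2b genes and for 4 of the Cyp3a genes. Cyp3a25, also among the 5, is not shown. The sequences are from RefSeq on GRCm38.p6, with 38 of 44 members matched in that table. Capitals mark AGGTCA (a nuclear receptor half-site), TGTTTAC (a forkhead core) and CAAAGTCCA (the type bound by HNF4A), each searched on both strands.
Cyp2b9 (chr7:26173159-26173408, plus strand): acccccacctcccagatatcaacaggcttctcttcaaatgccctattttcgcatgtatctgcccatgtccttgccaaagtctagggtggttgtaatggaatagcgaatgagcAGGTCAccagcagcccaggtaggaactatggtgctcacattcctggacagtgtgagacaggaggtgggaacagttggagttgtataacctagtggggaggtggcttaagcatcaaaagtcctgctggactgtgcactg
Cyp2b13 (chr7:26061245-26061494, plus strand): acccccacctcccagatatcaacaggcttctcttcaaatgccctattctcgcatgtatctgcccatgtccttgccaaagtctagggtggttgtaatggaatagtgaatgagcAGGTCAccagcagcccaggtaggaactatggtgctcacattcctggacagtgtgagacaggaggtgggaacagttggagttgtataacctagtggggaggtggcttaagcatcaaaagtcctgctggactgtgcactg
Cyp2b10 (chr7:25897408-25897657, plus strand): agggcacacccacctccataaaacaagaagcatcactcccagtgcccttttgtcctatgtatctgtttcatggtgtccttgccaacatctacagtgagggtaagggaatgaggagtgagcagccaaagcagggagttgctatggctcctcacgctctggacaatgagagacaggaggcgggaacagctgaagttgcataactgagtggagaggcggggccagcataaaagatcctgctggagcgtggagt
Cyp3a16 (chr5:145469724-145469973, minus strand): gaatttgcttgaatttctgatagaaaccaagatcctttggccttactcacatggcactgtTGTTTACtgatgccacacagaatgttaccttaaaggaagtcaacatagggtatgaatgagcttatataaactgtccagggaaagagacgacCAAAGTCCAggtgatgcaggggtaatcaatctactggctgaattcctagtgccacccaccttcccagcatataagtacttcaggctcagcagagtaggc
Cyp3a44 (chr5:145805875-145806124, minus strand): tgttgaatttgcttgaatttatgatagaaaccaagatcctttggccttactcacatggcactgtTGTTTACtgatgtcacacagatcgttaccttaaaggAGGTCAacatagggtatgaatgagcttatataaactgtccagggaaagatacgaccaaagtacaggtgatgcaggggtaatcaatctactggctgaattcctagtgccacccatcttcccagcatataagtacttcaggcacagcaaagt
Cyp3a41a (chr5:145720137-145720386, minus strand): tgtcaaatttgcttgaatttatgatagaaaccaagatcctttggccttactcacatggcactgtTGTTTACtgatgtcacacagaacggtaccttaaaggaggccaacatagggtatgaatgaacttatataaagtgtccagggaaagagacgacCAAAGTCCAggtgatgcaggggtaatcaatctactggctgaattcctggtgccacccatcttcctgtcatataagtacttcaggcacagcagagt
Cyp3a11 (chr5:145879855-145880104, minus strand): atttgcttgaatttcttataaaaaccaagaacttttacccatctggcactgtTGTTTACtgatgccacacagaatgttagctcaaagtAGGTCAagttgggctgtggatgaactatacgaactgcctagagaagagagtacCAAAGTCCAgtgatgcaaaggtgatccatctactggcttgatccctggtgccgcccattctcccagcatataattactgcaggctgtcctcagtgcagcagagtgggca

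The windows of Cyp2b9 and Cyp2b13 were the same at 248 of 250 bases, while each shared 182 bases with that of Cyp2b10 in an alignment of 260 columns. The windows of Cyp3a16 and Cyp3a44 were identical at 92.9% of aligned columns and those of Cyp3a44 and Cyp3a41a at 94.4%, against 72.1% for Cyp3a44 and Cyp3a11. AGGTCA stood in the windows of Cyp2b9, Cyp2b13, Cyp3a44 and Cyp3a11 and in 14.0% of all 32851 windows of that length. TGTTTAC stood in all 4 Cyp3a windows shown and in 3.17% of all windows. CAAAGTCCA stood in those of Cyp3a16, Cyp3a41a and Cyp3a11 and in 0.384% of all windows. TTCNNNGAA, the type bound by STAT5, stood in none of the 7 windows shown and in 7.02% of all windows. These matches describe the letters of the windows.

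The first comparison set knockout against wild-type mice on normal diet. Of the 44 members, 11 were higher and 4 lower in knockout mice, while 11.4% of all genes tested were higher and 8.42% lower. The median difference over the members was -0.03, and the members higher were all of subfamilies Cyp2a, Cyp2b, Cyp2c and Cyp3a. Called either way were 15 members, and 19.8% of all genes tested. The groups did not overlap in 14 of the 15, and in 63.2% of all genes called. On every slide that held both groups, the 11 higher members were higher, and so went 3 of the 4 lower ones, with Cyp2c38 the exception on 1 of 4 slides.

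**Figure D1:**
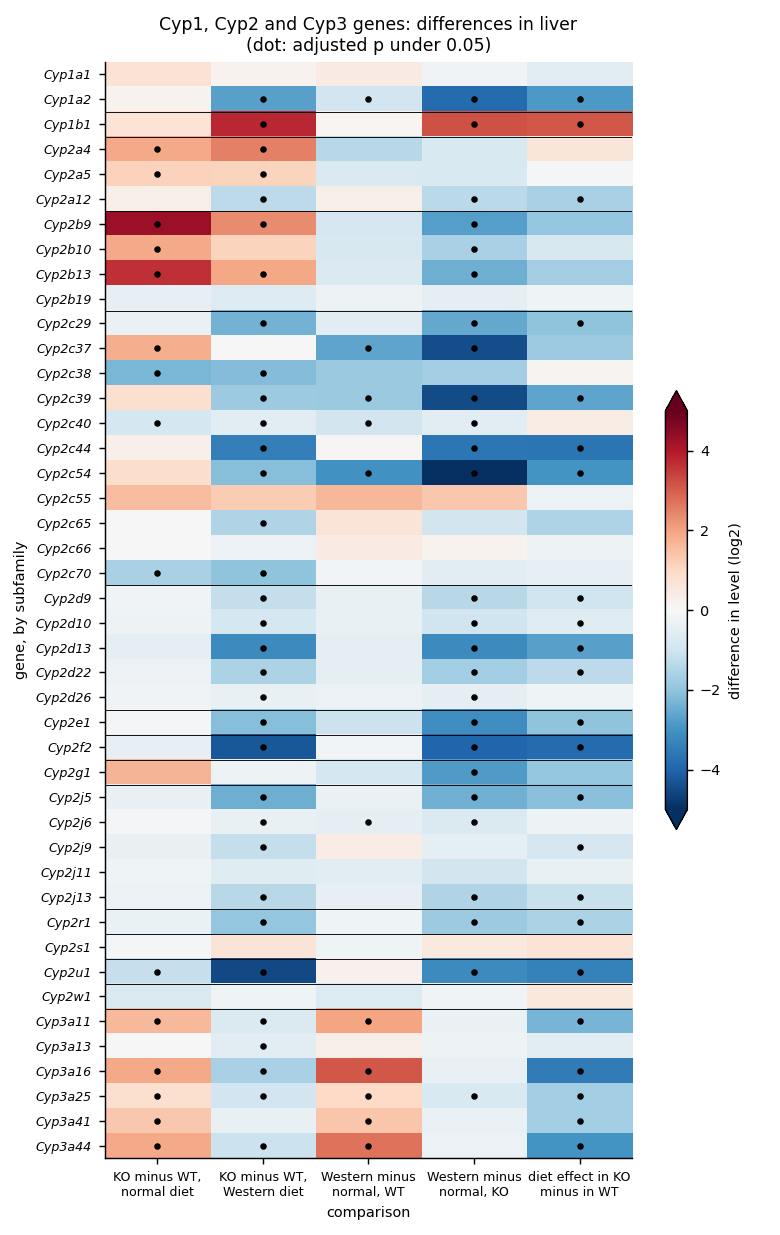
Differences in level (log2, colour, clipped at -5 and 5) of the 44 genes (rows, by subfamily) in 5 comparisons (columns), where a dot marks an adjusted p under 0.05. The Cyp2b and Cyp3a rows hold 8 dots, all for higher levels, in the column of knockout against wild-type mice on normal diet, and Western diet brings 28 lower calls between the genotypes and 25 between the diets in knockout mice.

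Cyp2b9 and Cyp2b13, P450s more abundant in female than in male mouse liver, had the largest differences among the members. Cyp2b9 levels were 2.67, 3.53, 2.92, 4.18 and 3.79 in knockout mice on normal diet, against -1.70, -0.27, -0.85, -0.98 and -0.54 in wild-type mice. Each knockout mouse lay above each wild-type mouse, and the difference was 4.28 ± 0.53 (adjusted p = 1.73e-05). Cyp2b13 levels were 0.76, 1.71, 0.78, 2.27 and 1.88 in knockout mice, against -3.24, -1.49, -2.67, -1.96 and -1.57 in wild-type mice, again without overlap (difference 3.67 ± 0.58, adjusted p = 0.000196). Because the brighter Cyp2b9 probe lists Cyp2b10 too, the other Cyp2b9 probe, which lists Cyp2b9 alone, was set beside it and gave 4.32. The Cyp2b13 probe used lists Cyp2b9 and Cyp2b10 too, so its value may hold their signal. The second Cyp2b13 probe, which lists Cyp2b13 alone, gave 2.55, with a mean level of -4.3 in wild-type mice on normal diet.

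Cyp2b10, the classical CAR-induced member, had levels of -1.99, -0.64, -1.32, 0.02 and -0.96 in knockout mice on normal diet, against -3.63, -2.26, -3.05, -3.08 and -2.42 in wild-type mice. The lowest knockout mouse stood above the highest wild-type mouse, and the difference was 1.91 ± 0.49 (adjusted p = 0.0103), which normexp background correction ended (adjusted p = 0.307). The second Cyp2b10 probe gave 1.45 and did not pass (adjusted p = 0.102, every probe fitted on its own). Cyp2b19, known from the epidermis, gave -0.42 ± 0.42 (adjusted p = 0.518).

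Among Cyp2a genes, Cyp2a5, which encodes the coumarin hydroxylase, had levels of 7.69, 8.09, 8.07, 7.54 and 7.56 in knockout mice on normal diet, against 6.41, 6.92, 6.75, 6.90 and 6.14 in wild-type mice. All 5 knockout spots were saturated, which makes the rise of Cyp2a5 at least 2.25-fold (adjusted p = 0.0196). This call was lost without wild-type mouse 5 on normal diet, with median scaling or with normexp correction. Its near-copy Cyp2a4, a steroid hydroxylase of female liver, was higher by 1.89 ± 0.41 (adjusted p = 0.00873), but its brightest probe kept a value in 2 wild-type mice because outlier spots were left out, and without wild-type mouse 5, or with the slide as a fixed block, the call was lost. The other 2 Cyp2a4 probes, with values on all 20 arrays, gave 1.86 and 2.17. Every Cyp2a4 probe also lists Cyp2a5, so a rise of Cyp2a4 cannot be told from that of Cyp2a5. Cyp2a12 did not pass (0.31 ± 0.17, adjusted p = 0.229).

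Of the 6 Cyp3a genes, which oxidise steroids, bile acids and many drugs, 5 were higher in knockout mice on normal diet. Cyp3a16, a gene of fetal and female liver, had levels of 5.55, 5.54, 5.32, 6.82 and 5.92 in knockout mice and 3.80, 2.85, 4.48, 4.22 and 4.39 in wild-type mice (difference 1.88 ± 0.32, adjusted p = 0.000424). Cyp3a11, the main PXR-induced member, had levels of 7.23, 6.95, 6.94, 7.44 and 7.47 in knockout mice and 5.42, 4.58, 6.08, 6.03 and 5.89 in wild-type mice (difference 1.61 ± 0.23, adjusted p = 6.38e-05). In both genes the groups did not overlap. The female-biased Cyp3a44 (1.91 ± 0.26) and Cyp3a41 (1.34 ± 0.19) and the hepatic Cyp3a25 (0.80 ± 0.17) were higher as well, with adjusted p up to 0.00312, and normexp correction ended the call of Cyp3a25. In knockout mice on normal diet 3 spots of Cyp3a41, 2 of Cyp3a11 and 1 of Cyp3a44 were saturated, so these sizes are not exact. Cyp3a13 was at -0.03 ± 0.23 (adjusted p = 0.939).

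The Cyp2c genes, most of which epoxidise arachidonic acid, split on normal diet. Cyp2c37, a gene of hepatocytes near the central vein, had levels of 6.08, 6.65, 6.19, 6.78 and 5.74 in knockout mice and 5.09, 4.06, 5.00, 3.06 and 5.24 in wild-type mice (difference 1.80 ± 0.59, adjusted p = 0.038). The groups did not overlap, yet the call was lost without wild-type mouse 2 or 4, without any of knockout mice 1 to 4 and with the slide as a fixed block. Cyp2c70, which makes the muricholic acids of mouse bile, had levels of 5.52, 5.47, 6.30, 6.93 and 7.07 in knockout mice and 7.66, 7.79, 7.73, 8.31 and 7.83 in wild-type mice. Every knockout mouse lay below every wild-type mouse (difference -1.61 ± 0.25, adjusted p = 0.000203). Cyp2c40 was lower by a smaller amount (-0.87 ± 0.17, adjusted p = 0.00116), and Cyp2u1, a fatty acid hydroxylase gene, was lower too (-1.14 ± 0.26, adjusted p = 0.00414).

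Cyp2c38 rested on fewer mice. Its levels were -3.50, -1.76, -3.42, -3.93 and -4.33 in knockout mice on normal diet and -2.27, 0.80, -1.06, -1.45 and -1.48 in wild-type mice. The groups overlapped, and the difference of -2.30 ± 0.71 (adjusted p = 0.0285) was lost without knockout mouse 1, 3 or 5 or wild-type mouse 2 or 3, and with the slide as a fixed block. The second probe of Cyp2c38 gave 0.53. Cyp1a2, Cyp2e1, Cyp2c29, Cyp2f2, the 5 Cyp2d genes and the 5 Cyp2j genes did not pass on normal diet.

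**Figure D2:**
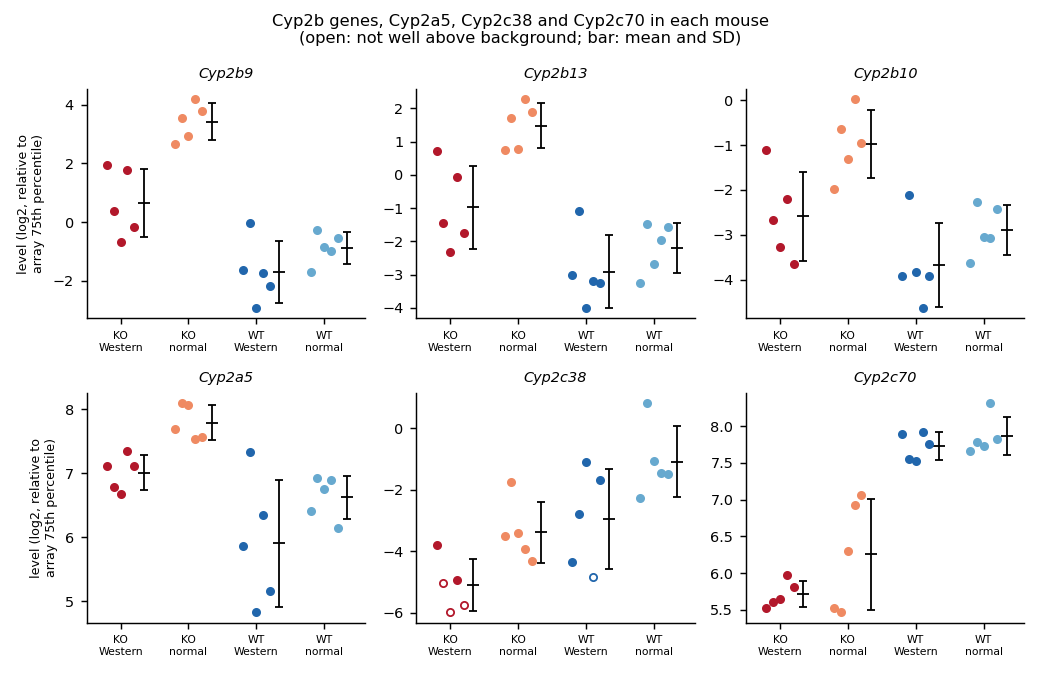
Levels (log2, relative to the array's 75th percentile) of 6 genes in each of the 5 mice of 4 groups, with the mean and SD beside the points and open points for spots not well above background. Cyp2b9 and Cyp2b13 stand above wild-type in knockout mice on normal diet, and the points of the groups on Western diet overlap.

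Partners of these enzymes were also read from lists. Of 20 genes for CAR, PXR and their partners, 3 were higher and 1 lower in knockout mice on normal diet, with a median of -0.10 against -0.06 over all genes tested. Gadd45b, a coactivator of CAR, was higher by 1.63 and Nr1i3, which encodes CAR, by 1.15. Nr1i2, which encodes PXR and is named for its role after its value was seen, was higher by 0.66. Of 8 tested electron donors and membrane partners, 1 was higher and 3 lower, and the reductase gene Por was higher by 1.75. Of 15 other female-biased liver genes, 7 were higher and 1 lower, with a median of 1.47. Of 17 other male-biased genes, 0 were higher and 3 lower, and Hsd3b5 was lower (-2.23). Of 17 markers of hepatocytes around the central vein that are no P450 genes, 1 was higher and 0 lower.

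The second comparison set Western against normal diet in wild-type mice. Of the 44 members, 5 were higher and 6 lower on Western diet, while 3.26% of all genes tested were higher and 2.72% lower. The 5 higher members were all Cyp3a genes and the 6 lower ones were Cyp1a2, Cyp2j6 and 4 Cyp2c genes. Called either way were 11 members, and 5.98% of all genes tested. All 11 went the same way on each of up to 4 slides that held both groups, and the groups did not overlap in 8, against 77.8% of all genes called.

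Cyp3a16 levels were 7.22, 7.42, 7.41, 6.42 and 6.81 in wild-type mice on Western diet, against 3.80, 2.85, 4.48, 4.22 and 4.39 on normal diet (difference 3.11 ± 0.32, adjusted p = 1.13e-05). Cyp3a44 levels were 7.89, 7.74, 7.69, 7.33 and 7.58 on Western diet, against 4.78, 4.08, 5.50, 5.15 and 5.14 on normal diet (2.72 ± 0.26, adjusted p = 4.25e-06). In both genes every mouse on Western diet lay above every mouse on normal diet. The 5 spots of the Western diet group were saturated for Cyp3a11 and for Cyp3a41, which leaves bounds. Cyp3a11 rose at least 3.98-fold (adjusted p = 2.61e-05) and Cyp3a41 at least 2.63-fold (adjusted p = 0.000131). Cyp3a25 was higher by 0.98 ± 0.17 (adjusted p = 0.00204; not called with normexp correction), and Cyp3a13 did not pass (0.30 ± 0.23, adjusted p = 0.503).

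In knockout mice none of the 6 was called higher on Western diet. Cyp3a16 levels were 5.59, 5.43, 5.33, 5.99 and 4.86 in knockout mice on Western diet, against 5.55, 5.54, 5.32, 6.82 and 5.92 on normal diet (difference -0.39 ± 0.32, adjusted p = 0.331). The knockout groups overlapped. Both lay above wild-type mice on normal diet, and all but knockout mouse 4 on normal diet lay below wild-type mice on Western diet. Cyp3a44 gave -0.28 ± 0.26 and Cyp3a11 -0.33 ± 0.23 in knockout mice, and Cyp3a25 was lower (-0.77 ± 0.17, adjusted p = 0.00118), a call that quantile normalization, normexp correction and the deposited matrix each ended. The difference between the diet effects, knockout minus wild-type, was -3.50 ± 0.46 for Cyp3a16, -2.99 ± 0.37 for Cyp3a44, -2.32 ± 0.32 for Cyp3a11, -1.75 ± 0.25 for Cyp3a25 and -1.73 ± 0.26 for Cyp3a41 (adjusted p up to 0.000106). Cyp3a13 gave -0.55 ± 0.32 (adjusted p = 0.234). Saturated spots entered the values of Cyp3a11 (8 arrays), Cyp3a41 (13), Cyp3a44 (3) and Cyp3a16 (1), so their sizes are not exact.

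**Figure D3:**
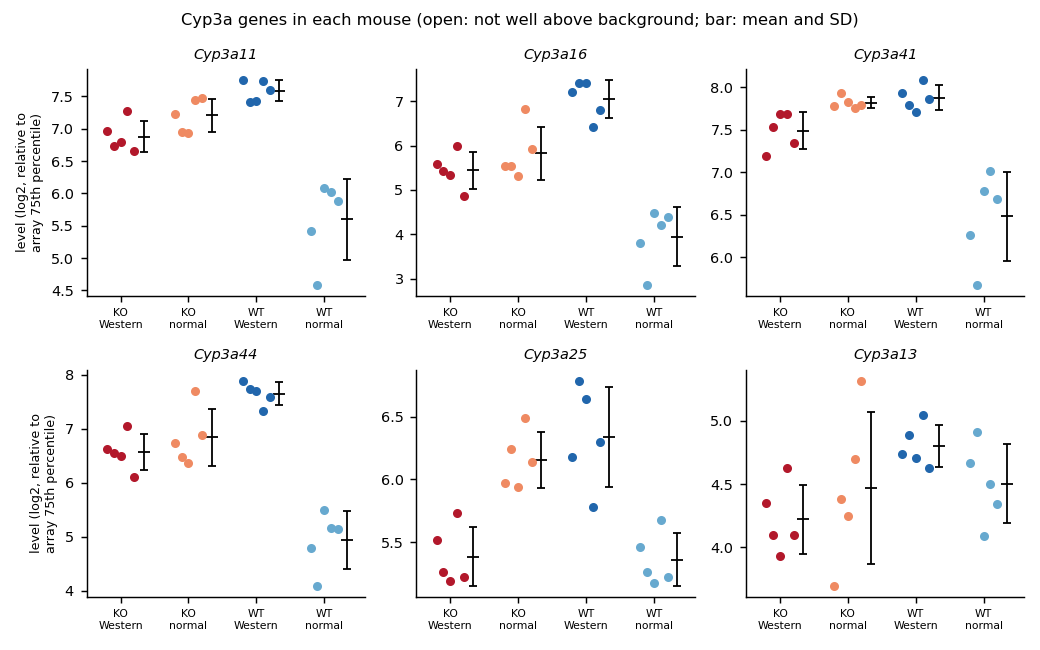
Levels (log2, relative to the array's 75th percentile) of the 6 Cyp3a genes in each of the 5 mice of 4 groups, with the mean and SD beside the points. The mean of wild-type mice on Western diet is the highest in each panel, but for Cyp3a41 saturated spots leave this rank unread (7.87 against 7.82 in knockout mice on normal diet). Cyp3a11, Cyp3a44 and Cyp3a16 also hold saturated spots, and Cyp3a13 had no called diet difference.

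On Western diet, knockout mice had lower levels than wild-type mice for Cyp3a16 (-1.62 ± 0.32, adjusted p = 0.000324), Cyp3a44 (-1.09 ± 0.26, adjusted p = 0.00149) and Cyp3a25 (-0.95 ± 0.17, adjusted p = 0.000137). Cyp3a11 was lower too (adjusted p = 0.0119). Its spots were saturated in all 5 wild-type mice and in 1 knockout mouse on Western diet, so no fold is given. Quantile normalization and normexp correction each ended the calls of Cyp3a11 and Cyp3a44, and the deposited matrix that of Cyp3a11. Cyp3a13 (-0.58 ± 0.23, adjusted p = 0.0379) overlapped between the groups, and its call was lost under 10 other settings, among them leaving out knockout mouse 2, 3 or 5 or wild-type mouse 1, 2 or 4. Cyp3a41 was saturated on all 5 arrays of both Western diet groups, so no fold is given.

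Of 7 members listed as genes of hepatocytes around the central vein, 3 were lower and 1, Cyp3a11, higher on Western diet in wild-type mice. Cyp2c54 levels were 0.23, 0.57, -0.48, -0.72 and -0.53 in wild-type mice on Western diet, against 2.87, 3.05, 2.93, 2.25 and 3.07 on normal diet (difference -3.02 ± 0.57, adjusted p = 0.00298). Cyp2c37 levels were 3.27, 3.44, 0.55, 1.39 and 0.62 on Western diet, against 5.09, 4.06, 5.00, 3.06 and 5.24 on normal diet (-2.63 ± 0.59, adjusted p = 0.0106). The Cyp2c37 groups overlapped, since mice 1 and 2 on Western diet stood above mouse 4 on normal diet. Cyp1a2, which oxidises caffeine and aromatic amines, had levels of 3.76, 3.63, 3.46, 3.98 and 3.97 on Western diet, against 4.64, 4.54, 4.64, 5.01 and 4.81 on normal diet (-0.97 ± 0.23, adjusted p = 0.0172). This call was lost without mouse 4 on normal diet, with median scaling or with normexp correction.

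Cyp2c40 was lower as well in wild-type mice on Western diet (-0.91 ± 0.17, adjusted p = 0.00257). Cyp2c39 (-1.85 ± 0.52, adjusted p = 0.0436) and Cyp2j6 (-0.48 ± 0.12, adjusted p = 0.0268) stood close to the threshold. The Cyp2c39 call was lost without wild-type mouse 1, 3, 4 or 5 on Western diet, wild-type mouse 1, 2, 3 or 5 on normal diet, knockout mouse 2 or 3 on Western diet or knockout mouse 3 on normal diet. The Cyp2j6 call was lost without wild-type mouse 1 or 3 on Western diet or wild-type mouse 2, 4 or 5 on normal diet. Cyp2e1, the ethanol-oxidising P450, had levels of 6.30, 5.95, 6.89, 6.84 and 6.94 on Western diet, against 7.73, 7.70, 7.65, 7.44 and 7.75 on normal diet. Its groups did not overlap, but it missed the threshold (-1.07 ± 0.33, adjusted p = 0.0659). Cyp2c29 missed it too (-0.54 ± 0.16, adjusted p = 0.0549), and Cyp2f2, a gene of hepatocytes near the portal vein, was saturated in all 5 mice on Western diet and did not pass (adjusted p = 0.898).

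Markers of the same zone moved alongside. Of the 17 central vein markers that are no P450 genes, 0 were higher and 12 lower in wild-type mice on Western diet, with a median of -1.22 against -0.03 over all genes tested. Their mean level was 1.60 to 2.62 on Western diet and 3.1 to 3.66 on normal diet. Rhbg, an ammonium transporter gene, was lower (-2.58), and so were the ornithine aminotransferase gene Oat (-2.55) and the glutamate transporter gene Slc1a2 (-2.30). Of 15 portal vein markers, 1 was higher and 2 lower, and of 19 hepatocyte markers 0 were higher and 2 lower. Nr1i3 was lower by 1.22 on the log2 scale and Ahr, which encodes AhR, by 1.11. The part of these genes in the values of the members was not tested.

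**Figure D4:**
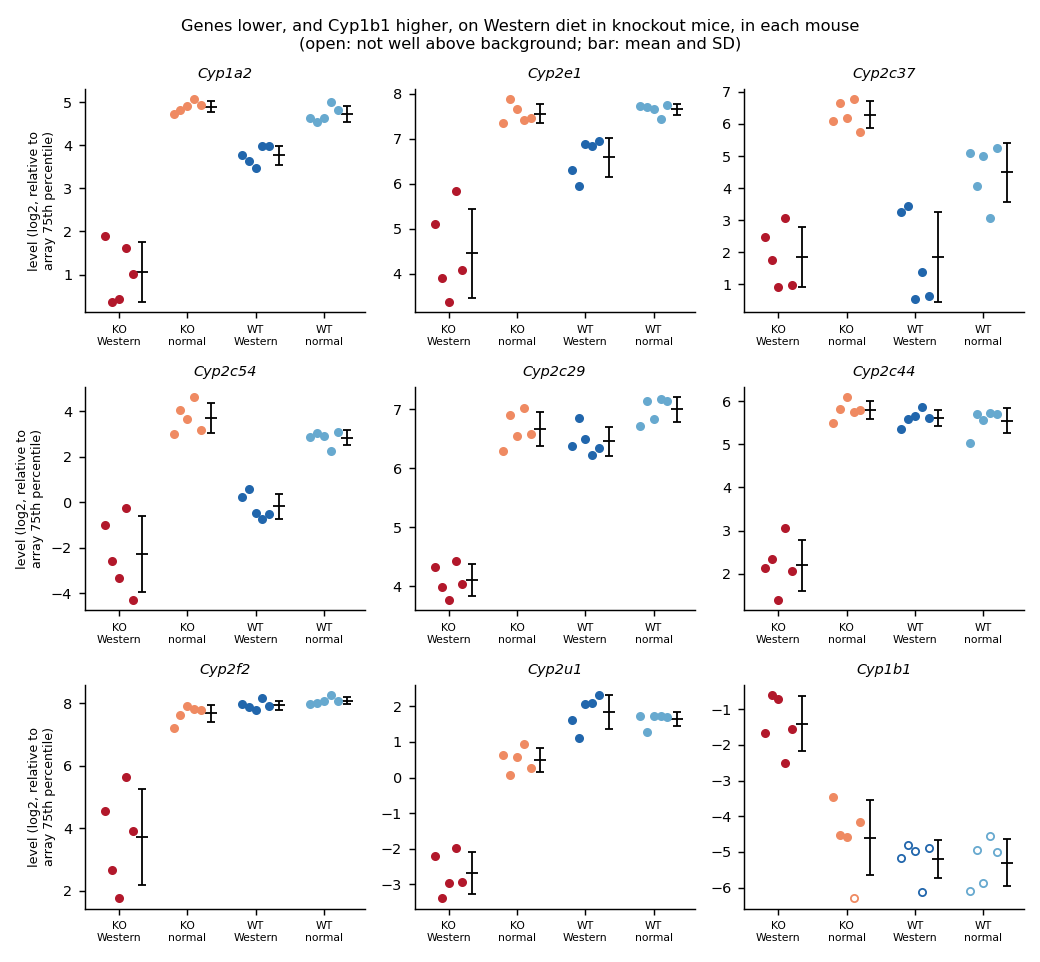
Levels (log2, relative to the array's 75th percentile) of 9 genes in each of the 5 mice of 4 groups, with the mean and SD beside the points and open points for spots not well above background. For Cyp2c54 and Cyp1a2 the Western diet groups of both genotypes lie below the normal diet groups, while Cyp2f2, Cyp2c44 and Cyp2c29 are lowest and Cyp1b1 highest in knockout mice on Western diet.

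The third comparison set Western against normal diet in knockout mice. Of the 44 members, 1 was higher and 25 lower on Western diet, while 22.7% of all genes tested were higher and 27.8% lower. Called either way were 26 members, and 50.4% of all genes tested. The median difference over the members was -0.95, against -0.12 over all genes tested. Of the 25 lower members 22 were lower on every slide that held both groups, and Cyp2b10, Cyp2c40 and Cyp2g1 on 4 of 5 slides.

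Of the 7 members listed for the central vein, 5 were lower and 0 higher, and Cyp3a11 and Cyp2a5 were not called. Lower calls were not limited to this zone. Of 17 central vein markers that are no P450 genes, 0 were higher and 12 lower. Of 15 portal vein markers 2 were higher and 12 lower, and of 19 hepatocyte markers 0 were higher and 18 lower. Cyp2c54 levels were -0.99, -2.57, -3.34, -0.25 and -4.31 in knockout mice on Western diet, against 3.02, 4.04, 3.67, 4.62 and 3.16 on normal diet (difference -6.00 ± 0.57, adjusted p = 1.25e-07). Cyp2c37 levels were 2.48, 1.77, 0.91, 3.08 and 0.99 on Western diet, against 6.08, 6.65, 6.19, 6.78 and 5.74 on normal diet (-4.44 ± 0.59, adjusted p = 5.69e-06). Cyp1a2 levels were 1.90, 0.36, 0.43, 1.62 and 1.01 on Western diet, against 4.73, 4.81, 4.91, 5.07 and 4.92 on normal diet (-3.83 ± 0.23, adjusted p = 7.17e-10). None of these groups overlapped. Cyp2c39, a retinoic acid hydroxylase, fell by 4.46 (SE 0.52, adjusted p = 1.41e-06) and Cyp2e1 by 3.09 (SE 0.33, adjusted p = 5.36e-07).

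For Cyp2c54, Cyp1a2, Cyp2c39 and Cyp2e1 the diet difference itself differed between the genotypes. The difference between the diet effects was -2.98 ± 0.80 for Cyp2c54 (adjusted p = 0.00969), -2.86 ± 0.33 for Cyp1a2 (adjusted p = 7.78e-06), -2.62 ± 0.74 for Cyp2c39 (adjusted p = 0.013) and -2.02 ± 0.47 for Cyp2e1 (adjusted p = 0.00368). The Cyp2e1 call was lost with normexp correction, and 2 Cyp2e1 spots were saturated in each normal diet group, so its size is not exact. For Cyp2c37 the result depended on the probe: it was -1.81 ± 0.83 (adjusted p = 0.118) with the brighter one and -2.47 (adjusted p = 0.0016, every probe fitted on its own) with the other, which also lists Cyp2c50. Over all members, 1 was higher and 22 lower in this test, while 12.9% of all genes tested were higher and 14.7% lower, and the members' median was -1.43 against -0.08 over all genes tested.

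Cyp2f2 and Cyp2c44 fell in knockout mice. In wild-type mice the diet difference of Cyp2c44 did not pass (0.06 ± 0.22), and that of Cyp2f2 cannot be read, since its spots were saturated in all 5 mice on Western diet and in 2 on normal diet. Cyp2f2, whose product epoxidises naphthalene, had levels of 4.54, 2.67, 1.75, 5.65 and 3.92 in knockout mice on Western diet, against 7.21, 7.64, 7.92, 7.83 and 7.78 on normal diet (-3.97 ± 0.47, adjusted p = 1.56e-06). Cyp2c44, an epoxygenase that RefSeq now calls Cyp2c23, had levels of 2.12, 2.33, 1.38, 3.05 and 2.06 on Western diet, against 5.51, 5.83, 6.10, 5.75 and 5.80 on normal diet (-3.61 ± 0.22, adjusted p = 7.61e-10). For both genes every mouse on Western diet lay below every mouse on normal diet. The difference between the diet effects was -3.67 ± 0.31 for Cyp2c44 (adjusted p = 3.15e-07), and that of Cyp2f2 passed (adjusted p = 0.000354) with a size that saturation leaves inexact.

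Cyp2u1 levels were -2.20, -3.40, -2.97, -1.98 and -2.93 in knockout mice on Western diet, against 0.63, 0.08, 0.57, 0.93 and 0.26 on normal diet (-3.19 ± 0.26, adjusted p = 2.11e-08). Cyp2j5, an epoxygenase gene of liver and kidney, was lower by 2.42 on the log2 scale (SE 0.14, adjusted p = 4.6e-10), and Cyp2r1, which encodes the hepatic vitamin D hydroxylase, was at -1.81 ± 0.16 (adjusted p = 6.87e-08). Neither knockout group overlapped the other in these genes. All 5 Cyp2d members are among the 25 lower calls, but the call of Cyp2d26 is not read. Cyp2d13, listed as a transcribed pseudogene in RefSeq, gave -3.18 ± 0.34, Cyp2d22 -1.75 ± 0.17, the male-biased testosterone hydroxylase gene Cyp2d9 -1.37 ± 0.15 and Cyp2d10 -0.99 ± 0.14, with adjusted p up to 1.78e-05. The second Cyp2d10 probe, with no saturated spot, gave -1.91. Cyp2d26 was saturated on all 20 arrays, so no difference is given for it. Its lower call between the genotypes on Western diet, 1 of 28 there, is not read either.

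The Cyp2b genes, high in knockout mice on normal diet, were lower on Western diet. Cyp2b9 levels were 1.94, 0.37, -0.69, 1.77 and -0.15 in knockout mice on Western diet, against 2.67, 3.53, 2.92, 4.18 and 3.79 on normal diet (-2.77 ± 0.53, adjusted p = 0.000274). Cyp2b13 gave -2.46 ± 0.58 (adjusted p = 0.00169) and Cyp2b10 -1.61 ± 0.49 (adjusted p = 0.011). Cyp2b9 and Cyp2b13 did not overlap between the diets, and Cyp2b10 did and was not called with normexp correction or with the mean of all probes. The second Cyp2b10 probe gave -0.97 (adjusted p = 0.188, every probe fitted on its own). In wild-type mice the diet gave -0.83 ± 0.53, -0.72 ± 0.58 and -0.79 ± 0.49 for the 3 genes, with adjusted p of at least 0.401. The difference between the diet effects did not pass for Cyp2b9 (-1.94 ± 0.75, adjusted p = 0.0634), Cyp2b13 (-1.73 ± 0.82, adjusted p = 0.128) or Cyp2b10 (-0.82 ± 0.70, adjusted p = 0.435). The probe that lists Cyp2b9 alone gave -2.64 (adjusted p = 0.0447, every probe fitted on its own). For Cyp2b9 this test passed in 7 other settings, among them the deposited matrix and the mean of all probes, and for Cyp2b13 in 2. Cyp2g1, known from olfactory mucosa, fell by 2.82 on the log2 scale (SE 0.64, adjusted p = 0.0013), with overlapping groups.

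The last comparison set knockout against wild-type mice on Western diet. Of the 44 members, 5 were higher and 28 lower in knockout mice, while 25% of all genes tested were higher and 32.7% lower. The median over the members was -0.92 against -0.16 over all genes tested, and 57.7% of all genes tested were called either way. Of the 33 called members 24 did not overlap between the groups, a share of 72.7% against 72% of all genes called. Of the 28 lower members 26 were lower on every slide that held both groups, with Cyp2c38 and Cyp2c54 lower on 3 of 4. This comparison uses the same knockout mice on Western diet as the preceding one.

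Cyp2u1, at -4.53 ± 0.26 (adjusted p = 1.6e-10), had levels of -2.20, -3.40, -2.97, -1.98 and -2.93 in knockout mice on Western diet, against 1.61, 1.11, 2.06, 2.09 and 2.31 in wild-type mice. Cyp2f2 was saturated in all 5 wild-type mice, at levels of 7.97, 7.87, 7.78, 8.16 and 7.91, against 4.54, 2.67, 1.75, 5.65 and 3.92 in knockout mice. Knockout levels were thus lower by at least 18.8-fold (adjusted p = 4.7e-07). Cyp2u1 and Cyp2f2 did not overlap between the genotypes.

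Cyp2c29, an epoxygenase gene, had levels of 4.33, 3.99, 3.76, 4.43 and 4.04 in knockout mice on Western diet, against 6.38, 6.85, 6.49, 6.22 and 6.34 in wild-type mice (-2.35 ± 0.16). Cyp2j5 had levels of 3.31, 3.06, 3.21, 3.85 and 2.99 in knockout mice, against 5.67, 5.87, 5.59, 5.93 and 5.65 in wild-type mice (-2.46 ± 0.14). Both lay apart in every mouse, as did Cyp2c44 (-3.43 ± 0.22), Cyp2d13 (-3.18 ± 0.34) and Cyp1a2 (-2.70 ± 0.23), and the adjusted p of these 5 genes was up to 3.11e-07. Cyp2e1 levels were 5.10, 3.91, 3.37, 5.83 and 4.08 in knockout mice, against 6.30, 5.95, 6.89, 6.84 and 6.94 in wild-type mice. Its groups did not overlap (-2.12 ± 0.33, adjusted p = 2.72e-05). Cyp2r1 (-1.94 ± 0.16, adjusted p = 1.66e-08) was lower as well. So was Cyp2c70 (-2.02 ± 0.25, adjusted p = 2.26e-06), with 4 of the 5 wild-type spots saturated, so that this size is not exact. The 2 probes of Cyp2c37 disagreed, at -0.01 ± 0.59 (adjusted p = 0.988) for the brighter one and -1.36 (adjusted p = 0.00331, every probe fitted on its own) for the one that also lists Cyp2c50.

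The 5 higher members were Cyp1b1, Cyp2a4, Cyp2a5, Cyp2b9 and Cyp2b13. Cyp1b1, an AhR-induced P450 found mainly outside hepatocytes, had levels of -1.66, -0.61, -0.71, -2.50 and -1.55 in knockout mice on Western diet, against -5.17, -4.80, -4.98, -6.12 and -4.89 in wild-type mice. No wild-type spot was well above background, so the rise of Cyp1b1 is a bound, at least 11.7-fold (adjusted p = 1.65e-06). Against knockout mice on normal diet, at -3.46, -4.53, -4.57, -6.30 and -4.15, it was higher by 3.19 ± 0.47 (adjusted p = 1.65e-05), and the difference between the diet effects passed too (adjusted p = 0.00187). No wild-type spot on either diet was well above background, so that difference has no exact size. All 3 calls were lost with normexp correction. The second Cyp1b1 probe was well above background on no array, the knockout mice on Western diet included, and was not tested. Cyp1a1, the other extrahepatic AhR target, did not pass in any comparison.

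Cyp2b9 levels on Western diet were 1.94, 0.37, -0.69, 1.77 and -0.15 in knockout mice and -1.64, -0.02, -2.92, -1.73 and -2.19 in wild-type mice (2.35 ± 0.53, adjusted p = 0.000963). Wild-type mouse 2 overlapped the knockout mice. The same mouse gave the highest wild-type level of Cyp2b13, -1.08, and of Cyp2a5, 7.33. Cyp2b13 differed by 1.93 ± 0.58 (adjusted p = 0.00808) and Cyp2a5 by 1.10 ± 0.34 (adjusted p = 0.00891). The Cyp2b13 call was lost with the probe that lists Cyp2b13 alone, and with normexp correction, and the Cyp2a5 call when saturated spots, 3 of them in knockout mice, were left out. Cyp2b9, Cyp2b13 and Cyp2a5 were higher on 3 of 4 slides. The brightest Cyp2a4 probe kept 1 wild-type value on Western diet, so its call is not read here although it is among the 5. The other 2 Cyp2a4 probes, with values on all 20 arrays, gave 1.62 (adjusted p = 0.00214) and 1.65 (adjusted p = 0.00571) when every probe was fitted on its own. These probes also list Cyp2a5, so the 2 genes cannot be told apart by them. Cyp2b10 did not pass with the probe used (1.10 ± 0.49, adjusted p = 0.0656). Its second probe gave 1.54 and passed (adjusted p = 0.0355, every probe fitted on its own).

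Markers of cell types moved between the same groups. Of 19 hepatocyte markers, 0 were higher and 15 lower in knockout mice on Western diet against wild-type mice on that diet, with a median of -0.62. Of 23 macrophage markers, 17 were higher and 4 lower, and of 18 stellate cell and matrix markers 15 were higher and 0 lower. The mean stellate cell and matrix level was 1.85 to 2.66 in knockout mice on Western diet, -0.20 to 0.82 in knockout mice on normal diet, -0.88 to -0.02 in wild-type mice on Western diet and -0.96 to -0.20 in wild-type mice on normal diet. Of 10 bile duct and progenitor markers, 8 were higher and 0 lower. Their mean level was 0.08 to 1.39 in knockout mice on Western diet, -2.64 to -1.44 in knockout mice on normal diet, -2.15 to -1.48 in wild-type mice on Western diet and -2.69 to -2.41 in wild-type mice on normal diet. The mean macrophage level was 2.38 to 2.66 in knockout mice on Western diet, -0.93 to 1.20 in knockout mice on normal diet, -0.27 to 1.38 in wild-type mice on Western diet and -0.64 to 0.33 in wild-type mice on normal diet. The part of these cell types in the member values was not tested.

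**Figure D5:**
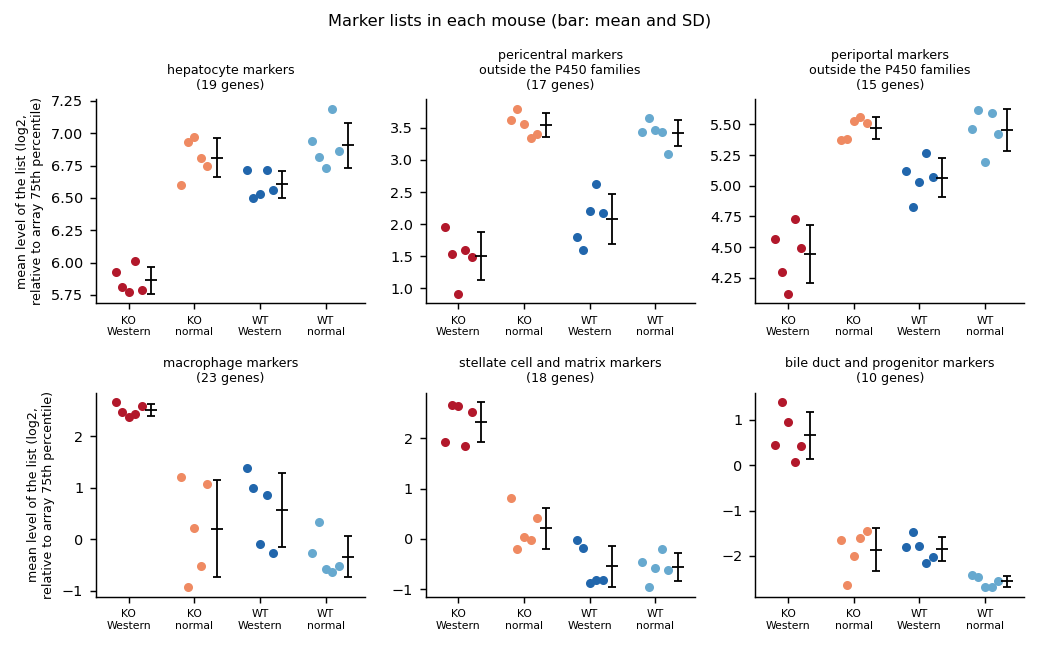
Mean level (log2, relative to the array's 75th percentile) of 6 marker lists in each of the 5 mice of 4 groups, with the mean and SD beside the points. Hepatocyte markers are lowest and macrophage, stellate cell and bile duct markers highest in knockout mice on Western diet, and central vein (pericentral) markers lie below the normal diet groups on Western diet in both genotypes.

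The counts of regulators and partners on Western diet are to be read against the 25% of all genes tested that were higher and the 32.7% that were lower. Of 20 genes for CAR, PXR and partners, 5 were higher and 12 lower in knockout mice on Western diet against wild-type mice. Cebpa (-1.37) and Foxa2 (-1.23), which encode hepatocyte transcription factors, were lower, while Nr1i3 (1.10) and Gadd45b (3.02) were higher. Of 12 haem synthesis and breakdown genes, 2 were higher and 7 lower. The erythroid synthase gene Alas2 was lower (-3.33), and Hmox1, which encodes the haem-degrading oxygenase, was higher (1.69). Of 8 electron donors and membrane partners, 2 were higher and 4 lower, among the lower ones the epoxide hydrolase gene Ephx1 (-1.56) and the cytochrome b5 gene Cyb5b (-1.56).

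In the same comparison all 17 male-biased genes outside these families were lower in knockout mice on Western diet, with a median of -4.40. The 2 male-biased members, Cyp2d9 (-1.19 ± 0.15) and Cyp2u1 (-4.53 ± 0.26), were lower. Of 15 other female-biased genes, 8 were higher and 2 lower, and Cux2, a repressor of male-biased genes, was higher by 2.14. Of the 8 female-biased members, 3 were higher and 4 lower. Of 20 regulators of growth hormone action and sex bias, 7 were higher and 9 lower (35% and 45%, beside 25% and 32.7% of all genes), and Igfals was lower (-1.92). These lists were chosen with earlier results of these data in view.

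The remaining members gave small or uneven values. Cyp2c55 levels in wild-type mice on Western diet were 1.37, 3.37, -1.26, -2.32 and -1.87, against -1.80, -2.74, -1.20, -2.44 and -0.77 on normal diet, and no comparison passed. In knockout mice Cyp2c55 levels were 1.17, 1.54, 0.95, 1.46 and 0.46 on Western diet and -0.11, -0.36, -0.58, -0.03 and -0.13 on normal diet, without overlap (1.36 ± 0.78, adjusted p = 0.155). The spread of the wild-type mice on Western diet, an SD of 2.43, was the largest of any member measured on all 5 arrays of a group. The fit used an estimate of spread shared by all groups. The diet difference of Cyp2c55 in knockout mice passed with the compared groups alone, and without wild-type mouse 2 on Western diet. Cyp1a1, Cyp2b19, Cyp2c66, Cyp2j11, Cyp2s1 and Cyp2w1 also passed in no comparison. Cyp2a12, a steroid hydroxylase gene, was lower in knockout mice on Western diet, at -1.31 ± 0.17 against wild-type mice and -1.33 ± 0.17 against knockout mice on normal diet, with adjusted p up to 4.28e-06.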

How the data were processed

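Liver RNA of 20 mice was hybridised to single-colour Agilent arrays. Scans were quantified by the authors in Feature Extraction 9.5.3.1, per the file headers, and the deposited spot intensity had been background-subtracted and detrended within the array. The deposited matrix of 24493 probes holds log2 values per the file's own range. Its column medians were 7.73 to 7.78 and its correlation with the levels used here 0.974 to 0.982. The submitters' processing notes name limma, and the normalization, centring and choice of probes of that matrix are not given in the sources used here. Outlier spots were left out, signals were averaged per probe, and log2 signals were set against each array's 75th percentile over non-control spots. A gene was tested if its probe stood well above background in 4 or more of the 5 mice of some group. One limma 3.58.1 fit in R 4.3.3 held the 4 group means, with 16 residual degrees of freedom, and was tested on simulated data. All members could be named, with full values for the largest differences of each subfamily and, of each other list, up to 4 genes with the largest difference in a comparison. Members and lists were chosen with earlier results of these data known. An at-least fold used the mean of the brighter group over dim values raised to the lowest signal well above background on the array, or over saturated spots at their value. Upstream windows came from RefSeq on GRCm38.p6 and were aligned with Biopython 1.88. The number of arrays limits the precision.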

Additional observations from a re-analysis of the deposited data

Results flagged for a closer look

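In 7 of the 152 groups of 5 well-measured member values, 1 mouse stood far from the other 4, and chance sets about 1 in 20 groups apart in this way. In wild-type mice on normal diet, mouse 4 was highest for Cyp2c70 (8.31), Cyp2d9 (8.44) and Cyp2j5 (6.22) and lowest for Cyp2c54 (2.25). In the same group mouse 1 was lowest for Cyp2c44 (5.04) and mouse 2 for Cyp2u1 (1.29). In knockout mice on Western diet, mouse 5 was lowest for Cyp1a1 (-5.38).

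The diet difference in knockout mice minus that in wild-type mice passed the test for 23 members. Among Cyp3a genes it was -3.50 for Cyp3a16, -2.99 for Cyp3a44, -2.32 for Cyp3a11, -1.75 for Cyp3a25 and -1.73 for Cyp3a41. Among Cyp2c genes it was -3.67 for Cyp2c44, -2.98 for Cyp2c54, -2.62 for Cyp2c39 and -2.02 for Cyp2c29. Among Cyp2d genes it was -2.73 for Cyp2d13, -1.32 for Cyp2d22, -1.0 for Cyp2d9 and -0.62 for Cyp2d10. The Cyp2d10 call was lost in 12 of 37 other settings, 7 of them with 1 mouse left out (knockout mice 2 and 3 on either diet, wild-type mouse 4 on Western diet and wild-type mice 1 and 2 on normal diet), and those of Cyp2d22 and Cyp2d9 with normexp correction. The Cyp2d10 probe used was saturated on 3 arrays. The second one, with no saturated spot, gave -1.35 (adjusted p = 0.0012, every probe fitted on its own). Among Cyp2j genes it was -2.10 for Cyp2j5, -1.10 for Cyp2j13 and -0.84 for Cyp2j9. The Cyp2j9 call (adjusted p = 0.0479) was lost in 21 of 37 other settings, including the replicate block and 15 of the 20 settings with 1 mouse left out, and that of Cyp2j13 in 2. Single members of other subfamilies were Cyp2f2 (-3.83), Cyp2u1 (-3.39), Cyp1a2 (-2.86), Cyp2e1 (-2.02), Cyp2a12 (-1.62) and Cyp2r1 (-1.60), and Cyp1b1 (3.09) was the 1 member with a positive value. No wild-type spot of Cyp1b1 was well above background, and spots of Cyp2f2 and Cyp3a11 were saturated in all 5 wild-type mice on Western diet and those of Cyp3a41 in both Western diet groups, so these sizes are not exact.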

How the results depend on the processing

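Of 3823 values of members under other settings with all mice, 3683 kept their side of the threshold. Of the others, 85 calls were lost, 52 gained and 3 reversed. With 1 mouse left out, 4283 of 4397 kept their side, 65 calls were lost, 49 gained and 0 reversed. Direction was compared only for values called in the report or under the other setting. All 3 reversals were of Cyp2d26, saturated on all arrays: with quantile normalization it gave 0.06 for knockout against wild-type mice on Western diet and 0.05 for the diet difference in knockout mice, and the diet difference in knockout mice came to 0 with the deposited matrix. Normexp background correction ended 36 calls. With it, 6 members were higher in knockout mice on normal diet (11 in the report) and 3 on Western diet (5), 3 were lower on Western diet in wild-type mice (6), and 0 were higher on Western diet in knockout mice or in the difference between the diet differences (1 each). With probes well above background on all arrays, 3 members were higher in knockout mice on Western diet, and 0 in the other 2 counts of 1. Quantile normalization gave 2 members higher in the difference between the diet differences, and a fit of the compared groups alone 2 higher on Western diet in knockout mice. Under settings chosen after seeing the data, probes that list 1 gene left 3 members higher in knockout mice on Western diet, and leaving out saturated values left 3 higher on Western diet in wild-type mice. The cause of these changes was not tested.

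With 1 mouse left out at a time, the members higher and lower in knockout mice numbered 9 to 13 and 3 to 5 on normal diet and 4 to 7 and 26 to 29 on Western diet. Those higher and lower on Western diet numbered 1 to 2 and 25 to 27 in knockout mice and 5 to 5 and 4 to 8 in wild-type mice, and those in the difference between the diet differences 1 to 1 and 20 to 24. The count of 2 higher in knockout mice came without knockout mouse 1 or wild-type mouse 2 on Western diet.

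The labels do not say that a replicate number marks a shared animal, litter or day, and in no comparison did all 5 same-numbered pairs deviate together at a correlation over 0.1, so the numbers were not taken to pair the mice. Over 0.1 were 0 of 5 pairs between genotypes on normal diet (-0.377 to -0.006), 2 on Western diet (-0.346 to 0.267), 3 between diets in knockout mice (-0.04 to 0.451) and 4 in wild-type mice (0.028 to 0.488). Same-numbered mice of the 2 diets shared a slide in 5 of 5 pairs of knockout mice and 4 of 5 of wild-type mice. With the slide as a fixed block, 9 members were higher and 3 lower in knockout mice on normal diet, 5 and 30 on Western diet, 1 higher and 31 lower on Western diet in knockout mice, and 5 and 6 in wild-type mice. With a replicate block, 10 members were higher and 5 lower in knockout mice on normal diet, 5 and 27 on Western diet, 1 higher and 27 lower on Western diet in knockout mice, and 5 and 6 in wild-type mice. Of all genes tested, the slide block gave 11% higher and 9.42% lower in knockout mice on normal diet. On Western diet it gave 25.5% and 36.8%. For the diet it gave 24.5% and 34.3% in knockout mice and 3.34% and 3.52% in wild-type mice. With the replicate block these shares were 11.2% and 8.43%, 24.9% and 32.5%, 22.5% and 27.6%, and 2.8% and 2.69%, in the same order. With normexp correction the share of all genes higher in knockout mice also fell, to 1.77% on normal diet (11.4% in the report) and 11.3% on Western diet (25%). The deposited matrix covered 42 of the 44 members. Median scaling moved the median of all genes to -0.26 for the genotypes on Western diet, against -0.16, and to 0.08 for the diet in wild-type mice, against -0.03. Signal over background limits dim members such as Cyp1b1 and Cyp2c38. Saturation limits Cyp2d26 (20 arrays), Cyp3a41 (13), Cyp3a11, Cyp2f2 and Cyp2a5 (8 each), Cyp2c70 (5), Cyp2a4 and Cyp2e1 (4 each) and members with fewer saturated arrays.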

Other observations

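Mice of a group did not stand alike over the members. Of the 43 members with values in all 5 knockout mice on Western diet, mouse 4 gave the highest level of the group for 30, and mice 3 and 5 the lowest for 16 each. In knockout mice on normal diet mouse 4 was highest for 23 of 44 members and mouse 1 lowest for 19. In wild-type mice on Western diet mouse 2 was highest for 18 of 42 members, and mouse 4 lowest for 17. Over the 37 to 40 members well measured in a group, the median SD of a member was 0.44 in knockout mice on Western diet, 0.31 in knockout mice on normal diet, 0.24 in wild-type mice on Western diet and 0.31 in wild-type mice on normal diet.

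Of 20 members with several probes, 35 combinations of a gene and a comparison had at least 2 called probes, and in 0 of them did called probes point in opposite directions. With every probe fitted on its own, 16 member probes of 59 tested were higher and 5 lower in knockout mice on normal diet. On Western diet 9 were higher and 37 lower. Several probes of a gene were counted separately here. In this fit, of the probes used for all genes tested, 11.1% were higher and 8.04% lower on normal diet. On Western diet these shares were 25% and 32.7%. Of the 6 AhR-axis genes tested, 4 were higher and 0 lower in knockout mice on Western diet, beside 25% and 32.7% of all genes tested. There Nqo1, a quinone reductase gene, was at 1.74 and Ahr at 1.31. On normal diet 3 of the 6 were higher and 0 lower, beside 11.4% and 8.42% of all genes tested.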
